A study of Rattus norvegicus with 6 samples.

Results

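The genes described are 8 rat genes of vessel growth signalling: the vascular endothelial growth factors Vegfa, Vegfb, Vegfc and Pgf, the angiopoietins Angpt1 and Angpt2, and the neuropilins Nrp1 and Nrp2. They were found by matching the RefSeq accession of each array probe, without its version, to these symbols. Of the 8 genes, 7 were matched, by 9 probes among 41012 gene probes, and all 7 were bright enough to be tested. Angpt2 was matched by no probe and is not analysed here. The samples were cultures of bone marrow cells from male rats, 8 weeks old, kept under osteogenic (bone-forming) conditions and collected on day 10. One group of 3 samples was exposed to LIPUS, low-intensity ultrasound delivered in pulses, and the other group of 3 received no treatment (control). RNA of each sample was labelled with the dye Cy3 and put on a single-colour array. The labels do not say whether replicates came from separate animals or cultures, so p-values measure only the spread between these samples, which may be technical.

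VEGF-A is the main growth factor for vessel sprouting and signals through the endothelial receptors VEGFR2 (gene Kdr) and VEGFR1 (Flt1), and osteoblasts are a known source of it in bone. VEGF-B and placental growth factor (Pgf) bind VEGFR1, whereas VEGF-C acts mostly on VEGFR3 (Flt4), the receptor of lymphatic vessels. Angiopoietin 1 stabilises vessels through the receptor Tie2 (Tek), and angiopoietin 2 often opposes it. Neuropilins are co-receptors that bind both VEGFs and class 3 semaphorins. Marrow cultures can hold stromal, blood-forming and endothelial cells, of which the last carry most of the VEGF and angiopoietin receptors.

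Promoters are shown for 2 ligand genes: Vegfa, whose 2 probes shifted by unequal amounts, and Vegfc, which had the largest difference below 0. The windows come from RefSeq, build GRCr8, and run from 250 bases before to 50 bases after an annotated start. Of the 8 genes, 6 have such a window, and Vegfa has windows for 2 starts. Capitals mark the GC box GGGCGG, a binding motif of Sp1-type factors, on either strand.
Vegfa, window 1 (chr9:22452604-22452903, plus strand): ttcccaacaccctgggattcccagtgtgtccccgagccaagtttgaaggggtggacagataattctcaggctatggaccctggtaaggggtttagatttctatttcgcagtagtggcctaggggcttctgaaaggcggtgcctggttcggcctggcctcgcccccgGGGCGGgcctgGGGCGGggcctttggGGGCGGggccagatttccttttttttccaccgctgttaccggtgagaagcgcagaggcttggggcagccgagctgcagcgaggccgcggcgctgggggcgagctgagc
Vegfa, window 2 (chr9:22460028-22460327, plus strand): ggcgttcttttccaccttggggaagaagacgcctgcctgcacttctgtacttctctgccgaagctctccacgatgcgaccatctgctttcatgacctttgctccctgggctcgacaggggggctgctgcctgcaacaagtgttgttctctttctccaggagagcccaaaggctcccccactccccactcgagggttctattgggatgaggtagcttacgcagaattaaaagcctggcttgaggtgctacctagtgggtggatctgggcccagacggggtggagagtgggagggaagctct
Vegfc (chr16:44560838-44561137, minus strand): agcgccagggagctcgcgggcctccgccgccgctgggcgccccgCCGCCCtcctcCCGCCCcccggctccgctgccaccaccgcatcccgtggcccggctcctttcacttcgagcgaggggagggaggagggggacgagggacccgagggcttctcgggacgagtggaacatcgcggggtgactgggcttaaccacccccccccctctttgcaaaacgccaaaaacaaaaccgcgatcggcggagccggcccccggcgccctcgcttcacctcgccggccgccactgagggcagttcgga
The first Vegfa window holds 3 GC boxes and the second 0, and the Vegfc window holds 2. Vegfb has 4, Pgf 2, and Nrp1 and Nrp2 0 each. Of all 33469 windows of other and these genes, 33.1% hold at least 1. The core ACGTG of the hypoxia response element was searched on both strands too, and it is in 0 of the 7 windows of these genes and in 19.3% of all windows. These are matches of exact letters in short windows and show no binding. Sites more than 250 bases before a start, or spelled otherwise, were not searched. The files do not give probe sequences, so where the 2 Vegfa probes lie relative to the 2 starts was not determined.

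LIPUS was compared with control to learn which of these signals differ after ultrasound during osteogenic culture. None of the 7 measured genes passed the test. The ligand genes differed in opposite directions: Angpt1 was 1.41-fold higher and Vegfc 1.39-fold lower in LIPUS, and the co-receptor gene Nrp1 was 1.40-fold higher, each without passing. Counted with limma at an adjusted p under 0.05, 0 of the 7 were called, beside 6.63% of all 21847 genes and unnamed probes tested (2.89% higher and 3.74% lower in LIPUS) and 8.69% of the 5697 with a symbol. A limma fit with a variance trend and robust estimation called 1 of the 7, Vegfc, beside 2348 of all 21847 tested. At an unadjusted p under 0.05 there were 3 of 7, beside 22.1% of all tested. The 3 LIPUS arrays did not overlap with the 3 control arrays for 4 of the 7 genes, beside 27.2% of all tested. The median change of the 7 genes was 0.15 on the log2 scale, with 4 above 0 and 3 below, and that of all tested was 0.03. With arrays scaled to 4 spike-in probes these medians were −0.22 and −0.34. The smallest change that was called anywhere on the array was 0.59 (1.51-fold), and the 7 genes, each read by its probe of highest mean level, differed by at most 0.49. Levels below are log2 spot brightness relative to the array's 75th percentile, which is 0. They are comparable between samples for 1 probe and not between probes.

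**Figure D1:**
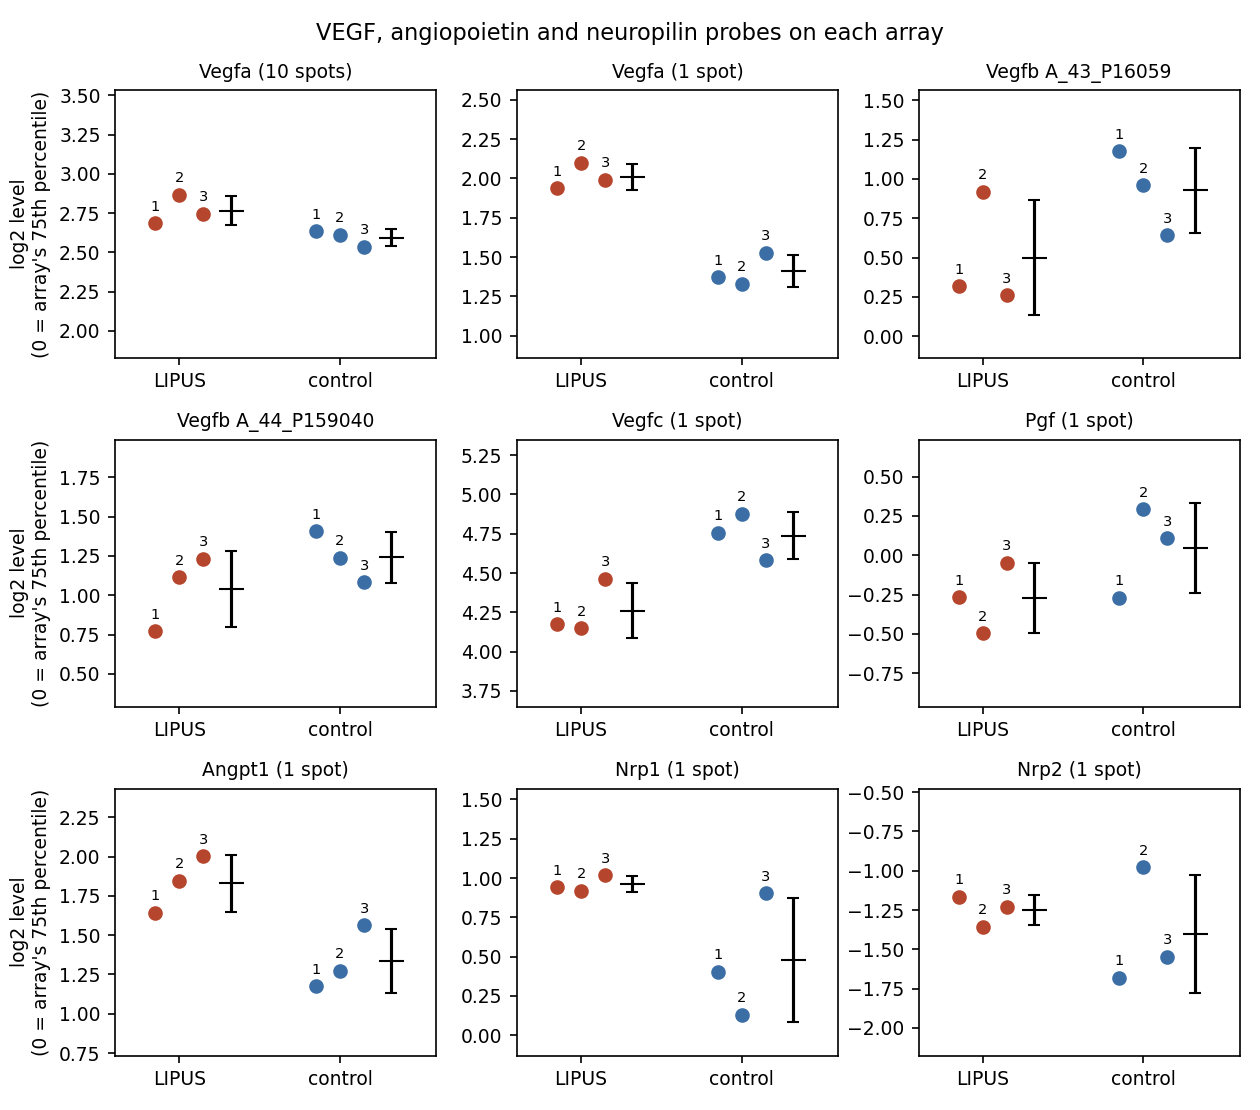
Log2 level of each of the 9 probes (y axis, 0 is the array's 75th percentile) on the 3 LIPUS and 3 control arrays. Numbers are replicates, horizontal marks with bars are means ± SD (n = 3), and every panel spans the same log2 range around its own centre. Vegfa, Angpt1 and Nrp1 have all LIPUS points above all control points, Vegfc has them below, and the other panels overlap.

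Arrays differed in how they were scanned, which bears on every value. Control 1 and control 2 had a grid tilt of 0.0925 and 0.0943 image units per column, against 0.0549, 0.0571 and 0.0601 on the LIPUS arrays and 0.0522 on control 3. Control 1 occupied the same place in its image as LIPUS 2, and control 2 the same as LIPUS 3, so the arrays of each pair came from different images. The labels and headers name no slide, so the arrays are described as 2 scan groups, with control 3 the only control in the group of the LIPUS arrays. A difference within that group is the LIPUS mean minus control 3, which is also the estimate with scan group as a block. Over all tested genes the arrays correlated at 0.964 to 0.986, and probes above background made up 55.3% to 61.9% on the LIPUS arrays and 53.5% to 61.3% on the control arrays. None of the 108 spots of the 9 probes, over all 6 arrays, had a saturated pixel or was marked as not found.

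Vegfa (NM_031836) is read by a probe printed in 10 spots on each array and by another with 1 spot. The mean of the 10 spots was 2.68, 2.87 and 2.75 in LIPUS and 2.63, 2.61 and 2.54 in control. All LIPUS arrays were above all control arrays, but by little: the lowest LIPUS array and the highest control array were 2.68 and 2.63. The difference was 0.17 ± 0.15 (SE; 95% interval −0.17 to 0.51) and did not pass (limma adjusted p = 0.547). Within the scan group of control 3 it was 0.23, and with spike-in scaling it turned to −0.20.

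The probe with 1 spot read 1.94, 2.10 and 1.99 in LIPUS and 1.37, 1.33 and 1.53 in control. Here the groups stood well apart, with each LIPUS array at least 1.94 and no control array above 1.53. The difference was 0.60 ± 0.16 (95% interval 0.25 to 0.95), a limma adjusted p of 0.0507 when every probe was tested on its own, beside 6.51% of probes called in that fit. It passed with quantile normalization (0.63, adjusted p = 0.0335) and without control 3 (0.66, 0.0369), where scan group and treatment cannot be told apart. With spike-in scaling it was 0.23 (adjusted p = 0.527). Within the scan group of control 3 it was 0.48, and 0.30 ± 0.18 by the authors' value table (adjusted p = 0.399).

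The 2 Vegfa probes shifted by unequal amounts in the spot tables. The 1-spot and 10-spot probes shifted by 0.60 and 0.17 over all arrays, and by 0.48 and 0.23 relative to control 3 alone. The 1-spot probe minus the 10-spot probe was −0.75, −0.77 and −0.76 in LIPUS and −1.26, −1.28 and −1.01 in control. This shift of 0.43 is not altered by adding a constant to all values of an array. The groups did not overlap (p = 0.1 by a two-sided exact permutation test, and no smaller p is possible with 3 arrays a group; 0.2 adjusted over the 2 genes with 2 probes). The 10 spots are repeat readings of 1 probe, and their spread holds spot noise as well as place on the array. Their log2 SD within an array was 0.22 to 0.28, while the LIPUS minus control difference taken at each of the 10 positions ran from 0.030 to 0.34 with an SD of 0.088. All 10 positions read above 0, and 0 of the 10 reached the 0.60 of the other probe, whose own spot error they do not measure. Why the 2 probes differ was not tested. By the authors' table of values the probe difference was −0.93, −0.86 and −1.43 in LIPUS and −1.20, −1.19 and −1.20 in control. There the groups overlapped and the shift was 0.12 (p = 0.4 by the same exact permutation test).

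**Figure D2:**
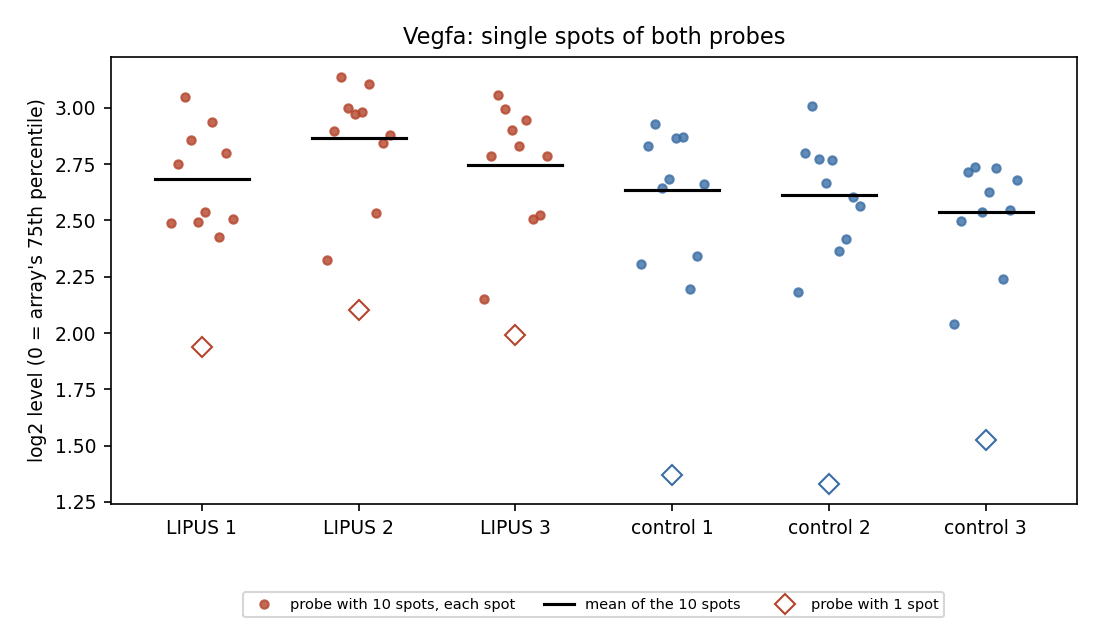
Log2 level of every Vegfa spot (y axis, 0 is the array's 75th percentile) on each array. Filled points are the 10 spots of one probe, bars their mean, and open diamonds the single spot of the other probe, whose height cannot be set against that of the first. The bars lie at 2.68 to 2.87 in LIPUS and 2.54 to 2.63 in control, and the diamonds at 1.94 to 2.10 and 1.33 to 1.53.

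Vegfb (NM_053549), a ligand of VEGFR1 linked to fatty acid handling, also has 2 probes, with 1 spot each. The probe used in the fit, A_44_P159040, read 0.77, 1.12 and 1.23 in LIPUS and 1.41, 1.24 and 1.08 in control. The groups overlapped, since LIPUS 2 and LIPUS 3 lay within the control range. The difference was −0.20 ± 0.18 (95% interval −0.61 to 0.21, limma adjusted p = 0.554), and −0.042 within the scan group of control 3. The other probe, A_43_P16059, read 0.32, 0.92 and 0.26 in LIPUS and 1.18, 0.96 and 0.64 in control. Its groups overlapped as well, through LIPUS 2, and its difference of −0.43 ± 0.22 did not pass (adjusted p = 0.300). In the authors' value table the same probe read 0.10 ± 0.20 (adjusted p = 0.801), so its sign depends on the source of values.

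Pgf (NM_053595), the placental growth factor gene, read −0.27, −0.49 and −0.048 in LIPUS and −0.27, 0.29 and 0.11 in control. Control 1 was as low as LIPUS 1 and the groups overlapped. The difference of −0.31 ± 0.20 (95% interval −0.76 to 0.13) did not pass (limma adjusted p = 0.396). It stayed below 0 in all 20 other settings, from −0.69 to −0.19.

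Vegfc (NM_053653), the ligand of lymphatic vessel growth, was bright, at 144 to 336 times the array's background limit. Its level was 4.17, 4.15 and 4.46 in LIPUS and 4.76, 4.88 and 4.58 in control. All LIPUS arrays were below all control arrays, and the nearest pair was LIPUS 3 and control 3. The difference was −0.48 ± 0.17 (95% interval −0.86 to −0.095), which did not pass (limma adjusted p = 0.137). Relative to control 3 alone it was −0.32 (adjusted p = 0.497 with scan group as a block), and in the authors' value table −0.38 ± 0.18. It passed in 2 settings: with spike-in scaling (−0.85, adjusted p = 0.0187) and with a variance trend and robust estimation (−0.48, adjusted p = 0.0271).

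Angpt1 (NM_053546), the vessel-stabilising ligand of Tie2, read 1.64, 1.85 and 2.00 in LIPUS and 1.17, 1.27 and 1.56 in control. The groups did not overlap, and control 3 was again the control nearest to the LIPUS arrays. The difference was 0.49 ± 0.18 (95% interval 0.094 to 0.89), which did not pass (limma adjusted p = 0.140). It stayed above 0 in all 20 other settings, from 0.12 with spike-in scaling to 0.67 in the authors' value table, and passed in none of them (lowest adjusted p = 0.0543). With scan group as a block it was 0.27 (adjusted p = 0.583). The Angpt1 and Vegfc differences, the highest and lowest of the 7 probes that stood for a gene, lay 0.97 apart. Adding a constant to all values of an array does not alter that distance. Relative to control 3 alone the 2 differences were 0.27 and −0.32.

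The neuropilin genes encode co-receptors. Nrp1 (NM_145098), which pairs with VEGFR2 and plexins, read 0.94, 0.92 and 1.02 in LIPUS and 0.40, 0.13 and 0.90 in control. The LIPUS arrays were tightly grouped (SD 0.051, n = 3) and the control arrays spread widely (SD 0.39, n = 3), with control 3 just under the LIPUS values. The difference was 0.48 ± 0.21 (95% interval 0.014 to 0.95) and did not pass (limma adjusted p = 0.213). It rested on control 1 and control 2: without control 3 it was 0.69 (adjusted p = 0.0390), and relative to control 3 alone 0.056 (0.924). Scan group and treatment cannot be told apart in the fit without control 3. In the authors' value table Nrp1 read 0.37, 1.08 and 1.25 in LIPUS and 0.51, 0.24 and 0.95 in control, and these groups overlapped.

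Nrp2 (NM_030869), the neuropilin of lymphatic and venous vessels, was the dimmest of the 7 genes relative to background, at 1.44 to 4.23 times the array's limit. It read −1.17, −1.36 and −1.23 in LIPUS and −1.68, −0.98 and −1.55 in control, with LIPUS inside the control range. The difference of 0.15 ± 0.21 (95% interval −0.31 to 0.61) did not pass (limma adjusted p = 0.710). It turned to −0.22 with spike-in scaling and to −0.23 ± 0.40 in the authors' value table.

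**Figure D3:**
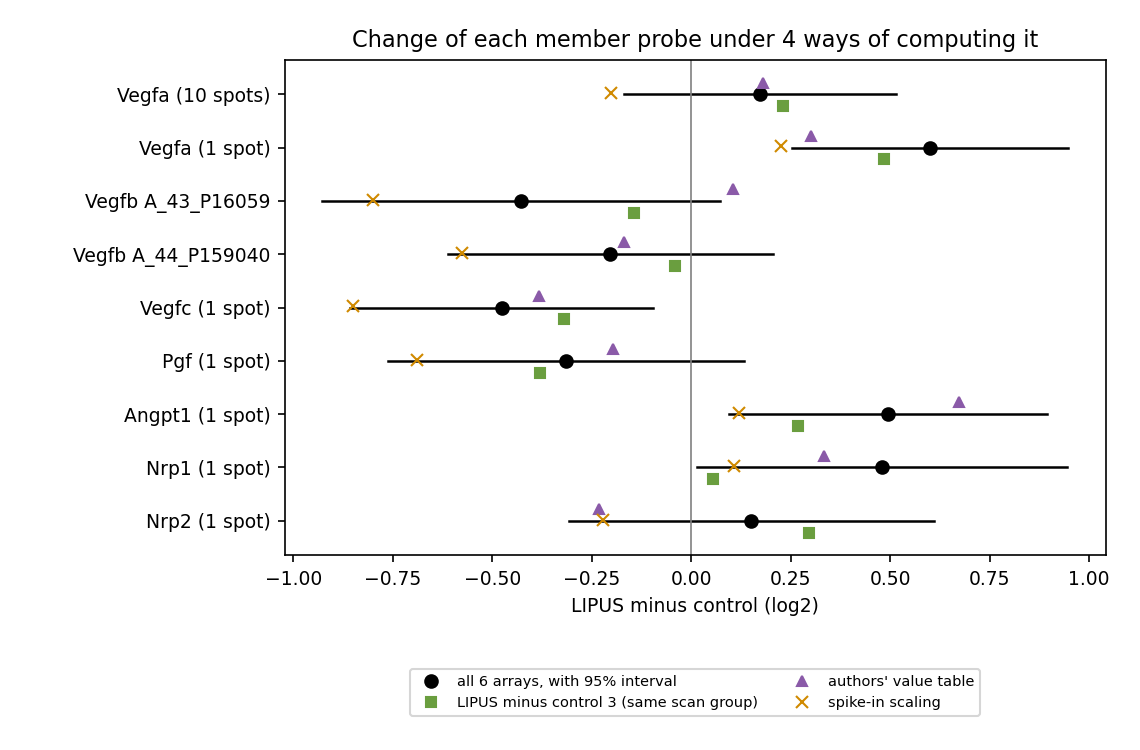
LIPUS minus control in log2 (x axis) for the 9 probes. Circles with bars are the fit on all 6 arrays with its 95% interval, squares the LIPUS mean minus control 3, triangles the authors' value table and crosses spike-in scaling. Spike-in scaling moved every probe down, the square of Nrp1 lies at 0.056, and the triangles of Nrp2 and of 1 Vegfb probe lie across 0 from their circles.

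The genes nearest in profile were looked up for the 2 genes with the smallest unadjusted p, Vegfc and Angpt1. Likeness was the root mean square difference of log2 levels over the 6 arrays after subtracting each gene's mean, among 5694 other named genes. Nearest to Vegfc were C19h1orf131 (0.0322), Pter (0.0464) and Timm21 (0.0596). Nearest to Angpt1 were Fam149b1 (0.0527), Rasa3 (0.0651) and Blcap (0.0741). The differences of these 6 genes between LIPUS and control were −0.50, −0.52, −0.49, 0.46, 0.46 and 0.43, and none passed. Their closeness to those of Vegfc and Angpt1 follows from choosing these genes by likeness over the same 6 arrays.

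Receptors and other partners of these ligands were mostly unread. Of 28 listed genes 10 had a probe and 7 were measured. Tek and Tie1, the angiopoietin receptor genes, and the plexin genes had no matched probe, and Flt1 and Flt4 were too dim. Of the 7, 1 rose, 0 fell and 6 did not pass. Their median change was 0.22 beside 0.03 for all tested, with 4 above 0 and 3 below. That median was −0.066 with scan group as a block (0.072 for all tested) and −0.15 with spike-in scaling (−0.34 for all tested). Angptl4 (NM_199115), a lipoprotein lipase inhibitor that hypoxia and fatty acids induce, rose 1.56-fold: 0.37, 0.58 and 0.52 in LIPUS, against −0.29, −0.17 and −0.0014 in control (0.64 ± 0.16, limma adjusted p = 0.0456). The groups did not overlap, but the call ended with scan group as a block (0.49, adjusted p = 0.273) and without any 1 array other than control 3 (0.0935 to 0.159). With spike-in scaling it was 0.27 (0.447).

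Kdr (NM_013062), the main VEGF-A receptor gene, read −0.51, −0.68 and −0.49 in LIPUS and 0.38, −0.083 and −0.17 in control. All LIPUS arrays lay below all control arrays, and the difference of −0.60 ± 0.19 did not pass (limma adjusted p = 0.0952). It was −0.39 relative to control 3 and passed with spike-in scaling (−0.97, adjusted p = 0.00862). Vegfd differed by −0.36 ± 0.19, Sema3a by −0.53 ± 0.33, Gipc1, whose protein binds the tail of neuropilin 1, by 0.42 ± 0.29, and Angptl2 by 0.23 ± 0.18, and none passed. Sema3a, a neuropilin 1 ligand gene, was above background on only 1 LIPUS and 2 control arrays.

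Hypoxia-inducible factors drive Vegfa in many cells, so regulators and targets of that pathway were read beside it. Of 28 listed genes 22 were measured: 0 rose, 1 fell and 21 did not pass. Of the 22, 16 lay above 0, beside 11799 of all 21847 tested, and the median was 0.085 beside 0.03. That median was 0.0088 with scan group as a block (0.072 for all tested) and −0.29 with spike-in scaling (−0.34 for all tested). Hmox1 (NM_012580), the heme oxygenase gene, which macrophages express strongly, fell 2.45-fold: 4.09, 3.83 and 4.09 in LIPUS, against 5.32, 5.26 and 5.32 in control (−1.29 ± 0.16, limma adjusted p = 0.00187). Its call held with scan group as a block (−1.31, adjusted p = 0.0384). The gene of the vasodilator adrenomedullin, Adm (−0.66 ± 0.18, adjusted p = 0.0552), and the mitophagy gene Bnip3 (0.57 ± 0.16, 0.0720) did not pass, nor did Egln1, Ldha and Pfkfb3 (0.49, 0.42 and 0.54). The factor genes themselves, named for their role, Hif1a (0.022 ± 0.18) and Epas1 (−0.013 ± 0.18), lay close to 0. Without control 3 this list had 5 calls, 3 higher and 2 lower, beside 2168 of all 21847 tested. Scan group and treatment cannot be told apart in that fit.

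Among other angiogenic factors and inhibitors, 16 of 29 listed genes were measured: 2 rose, 1 fell and 13 did not pass, with a median of −0.087 over the 15 below the scanner limit. Thbs1 (NM_001013062), which encodes the angiogenesis inhibitor thrombospondin 1, rose 3.44-fold: 0.87, 0.98 and 0.68 in LIPUS, against −0.62, −0.61 and −1.60 in control (1.78 ± 0.26, limma adjusted p = 0.00456). The gene of the heparin-binding growth factor midkine, Mdk (NM_030859), rose 1.84-fold: 1.52, 1.43 and 1.30 in LIPUS, against 0.61, 0.80 and 0.19 in control (0.88 ± 0.19, 0.0251). Pf4 (NM_001007729), an antiangiogenic chemokine of platelets that macrophages can also express, fell 3.41-fold: 4.34, 4.11 and 4.23 in LIPUS, against 6.13, 6.12 and 5.75 in control (−1.77 ± 0.17, 0.000784). All 3 genes kept their calls with scan group as a block (adjusted p = 0.0153, 0.0445 and 0.0268), while the call of Mdk ended without control 1 or any 1 LIPUS array (0.0603 to 0.0921), with spike-in scaling (0.51, adjusted p = 0.159), with no filter (0.88, 0.0788) and in the authors' value table (0.46, 0.297). With background subtracted the calls of Thbs1 (2.11, adjusted p = 0.0515) and Mdk (0.97, 0.0747) both ended. Thbs1 was not among the genes tested when spots marked as not found were left out. Pdgfc (−0.49 ± 0.17), Pdgfd (0.45 ± 0.17) and Tgfb1 (0.58 ± 0.22) did not pass, and Pdgfc was above background on only 1 LIPUS array.

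Markers of other cell types were read beside these genes, and fewer cells of a type cannot be told apart from less RNA per cell in such samples. Of 15 endothelial markers 6 were measured: 4 fell (Esam, Ramp2, Icam2 and Cldn5), 0 rose and 2 did not pass, with a median of −0.89. With scan group as a block the call of Icam2 held (limma adjusted p = 0.0360) and those of Esam (0.0552), Ramp2 (0.104) and Cldn5 (0.154) ended. The mean log2 level of the 6 was −1.07 to −0.96 in LIPUS and −0.20 to −0.084 in control. The defining marker Pecam1 and also Emcn and Flt1 were too dim, and Cdh5, Tek, Tie1 and Vwf had no matched probe. Of 15 macrophage and monocyte markers 13 were measured: 9 fell, 0 rose and 4 did not pass. Of those 4, C1qb, C1qa and Cd68 were at the scanner limit on 6, 5 and 3 arrays, all 3 control arrays included. C1qb therefore gives no difference, and the levels of C1qa and Cd68 were not read in full. Over the 10 markers below that limit the median was −1.35 and the mean level 1.86 to 2.17 in LIPUS and 3.43 to 3.61 in control. With scan group as a block 7 of the 9 calls held, and those of C1qc (adjusted p = 0.0589) and Cd14 (0.0959) ended. Of 10 osteoblast markers 8 were measured, of which Spp1, Bglap, Col1a2 and Sparc reached the scanner's top value on each of the 6 arrays and give no difference. Of the 4 others Dmp1 rose (1.59 ± 0.15) and Ibsp, Alpl and Sp7 (0.53, 0.34 and 0.18) did not pass. The part of these markers in the values of Vegfc, Kdr, Hmox1 and Pf4 was not tested.

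**Figure D4:**
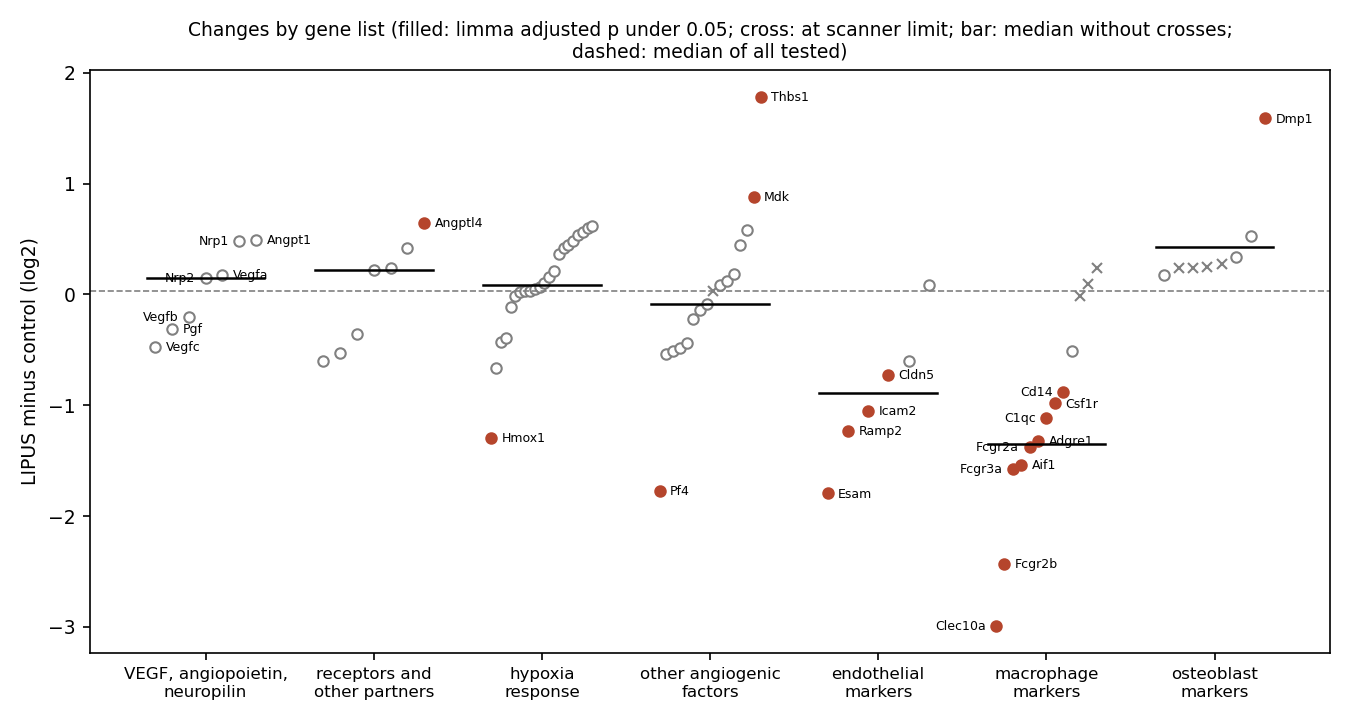
LIPUS minus control in log2 (y axis) for every measured gene of 7 lists, sorted within each list. Filled points passed limma at an adjusted p under 0.05, crosses are probes at the scanner limit on at least 1 array, bars are list medians without the crosses, and the dashed line is the median of all tested genes, 0.03. The 7 genes described here lie between −0.48 and 0.49 with 0 filled, and the endothelial and macrophage markers have medians of −0.89 and −1.35.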

How the data were processed

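Bone marrow cell RNA of 3 LIPUS and 3 control samples was measured on single-colour arrays, 45220 spots each. The deposited spot tables give, per the file headers, the median intensity of each spot and of its surroundings, unnormalized and at most 65535, while the share of saturated pixels is a percent, and spot positions are a score in image units. The value table deposited by the authors is on a log2 scale with the 75th percentile of each column at 0, as its values show. Column medians there are −2.49, −2.62 and −2.83 in LIPUS and −2.37, −2.49 and −2.53 in control. In both sources Vegfc is highest and Nrp2 lowest of the 9 probes on every array, which gives its direction. How it was made, and any centring beyond the 75th percentile, is not given in the sources used here.

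Spot medians were background-corrected with limma's normexp (offset 50), taken to log2, averaged over spots of a probe and scaled to each array's 75th percentile over gene probes. A probe was kept if its brightness minus background exceeded 95% of the 153 negative control spots on at least 3 of 6 arrays, which left 23260 of 41012. Symbols came from RefSeq accessions of GRCr8, used for names: 10768 probes matched. Each gene was read by its probe of highest mean level, which gave 21847 tested genes and unnamed probes. LIPUS minus control was fitted with limma 3.58.1 (lmFit, eBayes) in R 4.3.3 without covariates, two-sided, with Benjamini-Hochberg adjustment over all tested; the fit was tested on simulated data. Errors are moderated standard errors unless SD is named, and the number of arrays limits precision. Spike-in scaling used the median of 4 spike-in probes. Plots were drawn with matplotlib 3.10.9.

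All 8 genes were named, then up to 6 genes per list, by smallest unadjusted p, and the nearest profiles. Members and lists were chosen with earlier results of these data known. The main fit used no pairing by replicate number, and the labels do not say whether samples were paired. Deviations of same-numbered arrays from their group means correlated at 0.00107, 0.00948 and −0.0124. Alternatives varied the background correction, scaling, filter, probe choice, variance model, scan group, replicate block, source of values and arrays left out; leaving out spots marked as not found was added after seeing the data.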

Additional observations from a re-analysis of the deposited data

How the results depend on the processing

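None of the 7 measured genes passed in most settings: 1 passed with spike-in scaling (Vegfc), 1 with a variance trend and robust estimation (Vegfc), and leaving out 1 array at a time gave 0 to 1 (Nrp1 without control 3). Beside these, 3599, 2348 and 2168 of all 21847 tested were called with spike-in scaling, with the variance trend and without control 3. Other settings, all on the same 6 arrays or a part of them, gave 170 estimates for the 9 probes. Of these estimates 160 kept their direction and their side of the threshold, 6 came to pass and 4 changed sign. The sign changes were Vegfa (−0.20) and Nrp2 (−0.22) with spike-in scaling, and Nrp2 (−0.23) and the other Vegfb probe (0.10) in the authors' value table. With spike-in scaling that Vegfb probe passed (−0.80, limma adjusted p = 0.0251). Spike-in scaling moved the median of all tested from 0.03 to −0.34.

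Calls over all genes numbered 1449 (43.6% higher). They were 612 with background subtracted, 3599 with spike-in scaling (158 higher, 3441 lower), 655 with no filter, 809 in the value table, 2348 with the variance trend, 282 with scan group as a fixed block, and with 1 array left out 642 (without control 1) to 2168 (without control 3). Median scaling gave 472 higher and 990 lower. The count of the receptor and partner list, 1 in the fit of all arrays, was 0 with background subtracted, median scaling, no filter, the value table, either scan group block or the replicate block, 3 with spike-in scaling and 0 to 1 with 1 array left out. The hypoxia list, also 1, gave 2 with quantile normalization, median scaling or spots marked as not found left out, 3 with all 6 arrays above background, 4 with spike-in scaling or the variance trend, and 1 to 5 with 1 array left out. The other angiogenic factors, 3 called, gave 1 with background subtracted, 6 with spike-in scaling and 2 to 4 with 1 array left out. With spike-in scaling the 3 calls of the receptor and partner list were all lower in LIPUS, as were the 4 of the hypoxia list. Of the 6 other angiogenic factors called there, 1 was higher and 5 were lower. The cause of these shifts was not tested. The replicate block gave 1175 calls over all genes and 0 of the 7 genes, and ended the call of Angptl4 (adjusted p = 0.0727). Whether same-numbered arrays share more than a number is not in the labels.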

Other observations

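Mural cell genes, which mark the cells that wrap small vessels, were read on all arrays for 8 of 9 listed genes: 1 rose, 0 fell and 7 did not pass, with a median change of −0.12. Abcc9, a potassium channel subunit gene of pericytes, differed by 0.86 ± 0.18 (limma adjusted p = 0.0205; 0.141 with scan group as a block), while the pericyte regulator gene Rgs5 differed by −0.78 ± 0.20 (0.0509). Of 6 stromal progenitor genes 2 fell and 4 did not pass. Vcam1 was at the scanner limit on all 3 control arrays and on 0 LIPUS arrays, so its control level was not read in full. As read, it was 2.11-fold lower in LIPUS (−1.07 ± 0.19, limma adjusted p = 0.0106), and its difference was −0.86 relative to control 3. The leptin receptor gene Lepr differed by −0.90 ± 0.20 (limma adjusted p = 0.0268). Both calls ended with scan group as a block (0.149 and 0.194).

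Of 5 listed platelet and megakaryocyte genes 4 were measured. Pf4 fell as given above, Gp1bb rose (0.88 ± 0.19, limma adjusted p = 0.0267; 0.177 with scan group as a block), and Ppbp (0.33 ± 0.23) and Gp9 (0.25 ± 0.17) did not pass. Gp9 was above background on only 1 control array. Of 6 listed adipocyte genes 5 were measured: Cidec rose (1.09 ± 0.18, limma adjusted p = 0.00807; 0.124 with scan group as a block), and Pparg, Adipoq and Lpl, from −0.12 to 0.11, did not pass. Fabp4 was at the scanner limit on 4 arrays and is given no difference.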
